A study of Homo sapiens with 6 samples.

Results

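The genes described here are follistatin and 8 other genes of activin and TGF-beta signalling in Cal33, a cell line grown from a human squamous carcinoma of the mouth. They were taken by symbol from a table of 14136 gene entries: FST, FSTL3, INHBA, TGFB1, TGFB2, TGFBR1, TGFBR2, SMAD3 and SMAD7, all 9 of which had an entry. The genes were selected on measured values, namely their TPM in the CES2 and Vector cells and the library-to-library spread of FST. The fold changes and the spread of these genes are therefore given as a description. Those that passed the filter on low values were tested along with all other genes, and nothing is read from the outcome for them.

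The CES2 cells were infected with a lentivirus carrying pSin-EF2-CES2-FLAG, which encodes FLAG-tagged carboxylesterase 2, a hydrolase of ester bonds in drugs and lipids (CES2, 3 libraries). The Vector cells were infected with the pSin-EF2-empty vector (Vector, 3 libraries). Both viruses were packaged in 293FT, a kidney-derived packaging line, and both kinds of cell were kept as stable cells under puromycin at 0.5 ug/ml. The labels do not state whether replicate libraries derive from separate infections or cultures, so p-values measure only the spread between these libraries, which may be technical.

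Activins and TGF-betas are secreted dimers that bind a type II receptor kinase, which then activates a type I receptor. The type I receptor phosphorylates SMAD2 and SMAD3, and these enter the nucleus with SMAD4 to control transcription. Follistatin and its relative FSTL3 bind activin in the extracellular space and keep it from its receptors, and SMAD7 blocks the pathway from inside the cell. In stratified epithelium TGF-beta is known for restraining the growth of keratinocytes, and in carcinoma cells for promoting a mesenchymal change of shape and matrix.

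The windows around the RefSeq start sites of 3 genes are shown because FST and TGFB2 had the widest spread between libraries of the tested genes in the list, while FSTL3, the relative of FST, had a narrow one. Each window is 300 bases, from 250 before the start site to 50 after it. Capitals mark AGAC, the core SMAD binding motif, on either strand (GTCT on the strand shown).
FST, GRCh38, chr5:53480379-53480678, plus strand: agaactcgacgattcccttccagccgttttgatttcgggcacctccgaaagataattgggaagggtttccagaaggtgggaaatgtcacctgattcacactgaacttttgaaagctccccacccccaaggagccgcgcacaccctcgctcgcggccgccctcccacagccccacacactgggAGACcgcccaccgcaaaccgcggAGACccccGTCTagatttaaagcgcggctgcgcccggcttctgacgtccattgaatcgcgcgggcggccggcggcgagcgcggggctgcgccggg
FSTL3, GRCh38, chr19:676142-676441, plus strand: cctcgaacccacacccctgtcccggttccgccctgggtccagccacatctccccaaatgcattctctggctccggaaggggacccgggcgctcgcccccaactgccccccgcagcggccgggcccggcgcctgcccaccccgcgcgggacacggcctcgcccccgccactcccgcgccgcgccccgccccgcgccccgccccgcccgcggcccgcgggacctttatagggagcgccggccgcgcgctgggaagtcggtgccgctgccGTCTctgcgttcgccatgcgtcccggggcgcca
TGFB2, GRCh38, chr1:218345086-218345385, plus strand: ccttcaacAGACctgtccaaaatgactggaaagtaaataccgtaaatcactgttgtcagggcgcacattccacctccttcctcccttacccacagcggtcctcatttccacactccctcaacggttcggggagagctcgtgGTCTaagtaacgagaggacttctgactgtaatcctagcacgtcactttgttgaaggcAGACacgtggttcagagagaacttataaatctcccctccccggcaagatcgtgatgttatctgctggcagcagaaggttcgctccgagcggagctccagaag

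The SMAD motif AGAC was found 3 times in the FST window, 3 times in that of TGFB2 and 1 time in that of FSTL3. At 4 letters it is common, and 84.0% of the 34943 RefSeq windows of this length hold it. In the FST window the 3 matches began 68, 45 and 37 bases before the start site. The full palindrome GTCTAGAC was in none of the 3 windows and is in 0.203% of all windows. For AP-1 the pattern searched was TGANTCA, where N is any base, and 7.72% of windows hold it. FST held 1 match, 160 bases before its start, which reads TGATTCA. The AP-1 consensus has C or G in the middle, so this match is not to the consensus. TGFB2 held the TEAD letters GGAATG, on the opposite strand, 185 bases before its start, as 14% of windows do. TGFB2 held TATAAA on the strand shown and FSTL3 held it on the opposite strand, each 29 bases before the start. FST did not hold it, and 11.6% of all windows do. The letters of the cyclic AMP response element, TGACGTCA, were in none of the 3 windows and are in 1.84% of all windows. Both strands were searched for each motif. AGAC can lie within GTCTAGAC, and none of the other motifs contains AGAC. The GC content was 63.7% for FST, 78.7% for FSTL3 and 51.7% for TGFB2, where the median over all windows was 58.7%. The transcript listed for FST in the deposited table starts 220 bases before this RefSeq start, that of FSTL3 starts 27 bases before it, and that of TGFB2 starts 899 bases after it.

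The deposited table summed to just under 1000000 TPM in each library, with 73 to 279 blank entries per library. The transcript of the construct's gene was read first, as a check on the labels. CES2 stood at 2664, 1929 and 2294 TPM in the CES2 libraries and at 45.6, 41.9 and 44.9 TPM in the Vector libraries. On the log2 scale the difference was 5.66 (SE 0.18), with an adjusted p = 7.38e-06 by limma. A two-sided exact permutation test on the same values returned p = 0.1, and no smaller p is possible with 3 libraries on each side. CES2 was the 1 gene past the adjusted p threshold of 0.05 among the 12210 tested, and leaving out CES2 3 gave 2 such genes. All 9 squamous epithelial markers had an entry, with summed levels of 4243 to 5733 TPM in CES2 and 4322 to 5611 TPM in Vector. Of these, KRT5 and KRT14 are singled out after their values were seen. KRT5 reached at least 1031 TPM in each library, whereas KRT14, the usual partner of KRT5, was at 1.14 to 2.97 TPM. Of 8 fibroblast markers 1 had an entry (COL1A1, at 3.89 to 10.5 TPM), and of 4 leukocyte markers 1 had one (CD68, at 5.47 to 11.6 TPM).

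FST, which encodes follistatin, varied more than any other tested member from library to library. It was at 28.3, 20.6 and 185 TPM in the CES2 libraries and at 16.6, 133 and 102 TPM in the Vector libraries. CES2 3, Vector 2 and Vector 3 were high, CES2 1, CES2 2 and Vector 1 were low, and each group held both kinds, so the groups overlapped over nearly their whole range. The highest value was 11.2 times the lowest. The group means were 78.1 ± 93.0 TPM in CES2 and 84.1 ± 60.4 TPM in Vector (SD, n = 3 each), so the SD in CES2 exceeded the mean. The log2 fold change was -0.35 (SE 0.94). Among all entries of a library, FST ranked from percentile 43.0 in Vector 1 to percentile 93.0 in CES2 3. Its SD within groups, 1.64 on the log2(TPM + 1) scale, was the 37th largest of the 12210 genes tested.

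**Figure D1:**
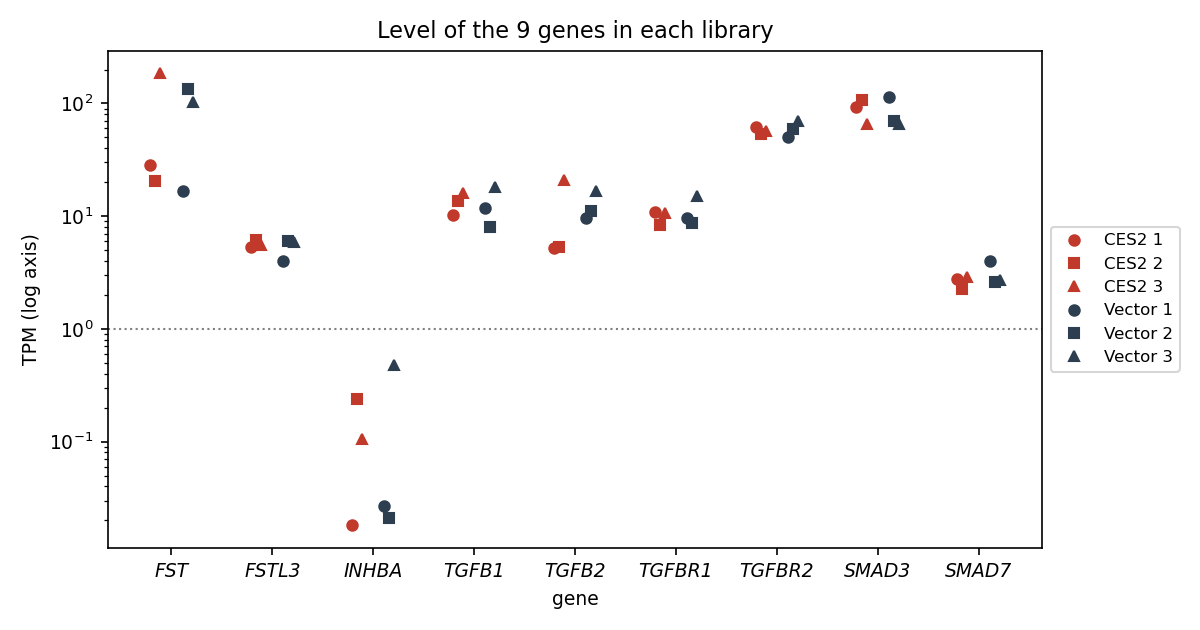
TPM (log axis) of the 9 genes in each library; each point is 1 library, red for CES2 and dark blue for Vector, and the dotted line is 1 TPM. FST spans 16.6 to 185 TPM with both groups on both sides of the gap, INHBA lies below 1 TPM in each library, and the other genes are more tightly grouped.

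**Figure D2:**
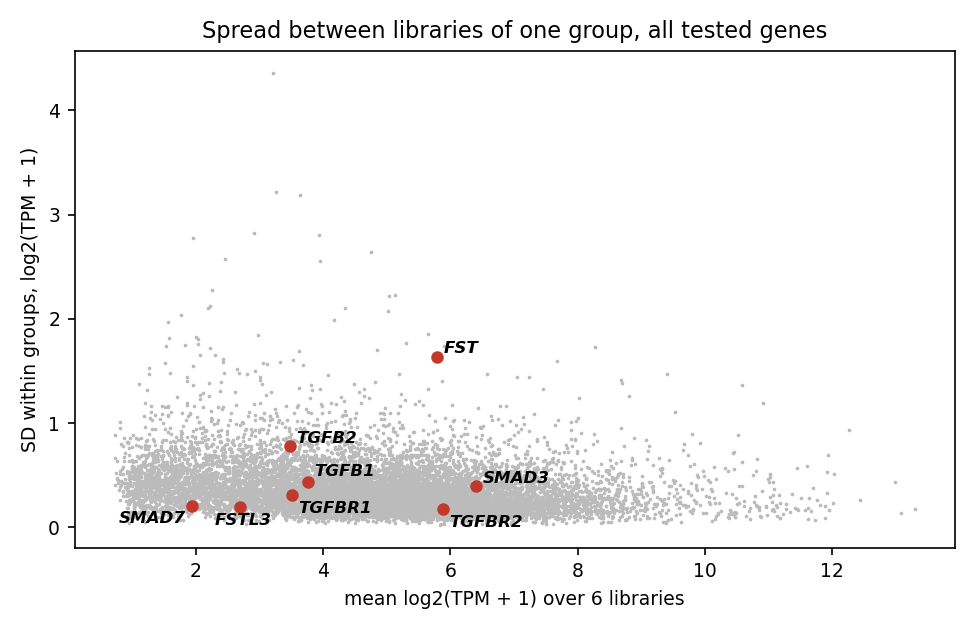
SD within groups of log2(TPM + 1) (vertical) against the mean over the 6 libraries (horizontal) for the 12210 tested genes in grey, with the 8 tested members in red. FST lies at 1.64, above most genes of its level, and TGFB2 at 0.78, while FSTL3, TGFBR2 and SMAD7 lie near 0.20.

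FSTL3, a secreted glycoprotein that also binds activin, did not share this spread. It was at 5.38, 6.17 and 5.53 TPM in CES2 and at 4.04, 5.96 and 5.85 TPM in Vector. The groups overlapped, with Vector 1 the lowest library and CES2 2 the highest. The log2 fold change was 0.10 (SE 0.25), and it turned to -0.05 without Vector 1. Because TPM is scaled by transcript length, the levels of both inhibitors can be set side by side within a library. FST stood 5.26, 3.34 and 33.5 times above FSTL3 in the CES2 libraries and 4.11, 22.3 and 17.5 times above it in the Vector libraries. FST was thus the more abundant of the 2 inhibitor transcripts in each of the 6 libraries, at a ratio that ranged over the libraries as FST itself did.

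INHBA encodes the beta A subunit, which pairs with itself to form activin A, the main target of follistatin. Its transcript was very low at 0.0181, 0.239 and 0.106 TPM in CES2 and 0.0270, 0.0209 and 0.480 TPM in Vector. With all 6 libraries below 1 TPM it failed the filter on low values and was not tested, and its rank was between percentiles 1.37 and 7.79 of the entries. The other subunit genes of activin and inhibin, named here after their values were seen, were low as well. INHBB was at most 0.334 TPM, INHBC at most 0.512 TPM and INHBE at most 0.929 TPM, and INHA, the inhibin alpha subunit, ranged over 0.802 to 3.61 TPM. The INHBA gene overlaps INHBA-AS1 on the opposite strand in GENCODE.

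TGFB1 and TGFB2 encode the ligands TGF-beta 1 and TGF-beta 2. TGFB1 was at 10.3, 13.7 and 16.0 TPM in CES2 and at 11.9, 8.01 and 18.1 TPM in Vector, with overlapping groups and a log2 fold change of 0.12 (SE 0.32). Vector libraries were both the lowest and the highest. That fold change turned to -0.02 without CES2 3 and to -0.15 without Vector 2. TGFB2 was at 5.20, 5.34 and 20.8 TPM in CES2 and at 9.64, 11.0 and 16.6 TPM in Vector. CES2 3 was again the highest library, and the other 2 CES2 libraries lay below each Vector library. The log2 fold change of TGFB2 was -0.46 (SE 0.49), and its SD within groups of 0.78 was larger than that of 95.2% of tested genes. TGFB3, the remaining isoform and not among the members, was at 2.63 to 3.72 TPM in CES2 and at 2.53 to 5.58 TPM in Vector.

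TGFBR2, the type II receptor of TGF-beta, had the narrowest range among the 9 genes. It was at 61.2, 54.1 and 56.7 TPM in CES2 and at 50.1, 58.8 and 69.7 TPM in Vector, which overlapped, and its highest value was 1.39 times its lowest. Its log2 fold change was -0.04 (SE 0.19), and it turned to 0.08 without Vector 3 and to 0.02 under median rescaling. TGFBR1, the type I receptor, was at 10.9, 8.28 and 10.7 TPM in CES2 and at 9.63, 8.68 and 15.1 TPM in Vector. Vector 3 was the highest library and the rest lay close together. Its log2 fold change of -0.12 (SE 0.27) turned to 0.10 without Vector 3. Some receptors of activin were also present at the RNA level. ACVR1B, a type I receptor of activin, was at 13.2 to 27.2 TPM in CES2 and 20.9 to 25.4 TPM in Vector. ACVR2A, a type II receptor named here after its values were seen, was at 2.99 to 4.48 TPM in CES2 and 2.28 to 4.78 TPM in Vector. ACVR1C, another listed receptor also named after its values were seen, stayed at 0.128 to 0.665 TPM and was not tested.

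SMAD3, the transcription factor phosphorylated by these type I receptors, ran opposite to FST. It was at 93.6, 108 and 66.1 TPM in CES2 and at 113, 69.4 and 65.6 TPM in Vector. Here Vector 1, CES2 2 and CES2 1 were high and CES2 3, Vector 2 and Vector 3 were low, and the groups overlapped. The log2 fold change was 0.12 (SE 0.27), and it turned to -0.03 without CES2 2 and to -0.02 without Vector 3. SMAD7, the inhibitory SMAD, was low at 2.75, 2.24 and 2.86 TPM in CES2 and 4.02, 2.62 and 2.7 TPM in Vector. Apart from Vector 1 the libraries differed little, and the log2 fold change was -0.17 (SE 0.27).

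For TGFB1, TGFBR1 and SMAD3 the deposited table lists a short transcript, of 559, 533 and 568 bases, which in GENCODE holds 30.7%, 23.3% and 21.7% of the longest coding sequence of the gene. Whether the TPM of these genes was scaled to that transcript or to the whole gene is not given in the sources used here, so their levels are compared between libraries and not with those of other genes. The listed transcripts of FST, FSTL3, INHBA, TGFB2 and SMAD7 hold the full coding sequence, and that of TGFBR2 holds 95.8% of it. FST (ENSG00000134363) lies on chromosome 5 from 53480409 to 53487134 on the plus strand in GRCh38, with 6 exons in the listed transcript, and no other GENCODE gene overlaps it. TGFB1 overlaps 4 protein-coding genes on the opposite strand and SMAD3 overlaps 2 antisense genes, and the use of strand in counting is not given.

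None of the 8 tested members passed the threshold over all genes, where 0.00819% of the genes tested passed, and in none did the groups stay apart, as they did in 3.70% of tested genes (1.07% higher in CES2 and 2.63% lower). Of the 8 log2 fold changes 3 were above 0 and 5 below, with a median of -0.08 beside -0.06 over all genes tested. Since the list was chosen with this comparison known, nothing is read from these counts. Leaving out 1 library moved FST further than its fold change with all 6. Without CES2 3 its log2 fold change was -1.31 (SE 0.73) and without Vector 1 it was -1.26. Without CES2 2 it was 0.24, without Vector 2 it was 0.20, without CES2 1 it was 0.02 and without Vector 3 it was 0.01. TGFB2 stayed below 0 with each library left out, between -1.06 without CES2 3 and -0.16 without CES2 1. SMAD7 stayed below 0 as well, between -0.26 and -0.02 over the alternatives.

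**Figure D3:**
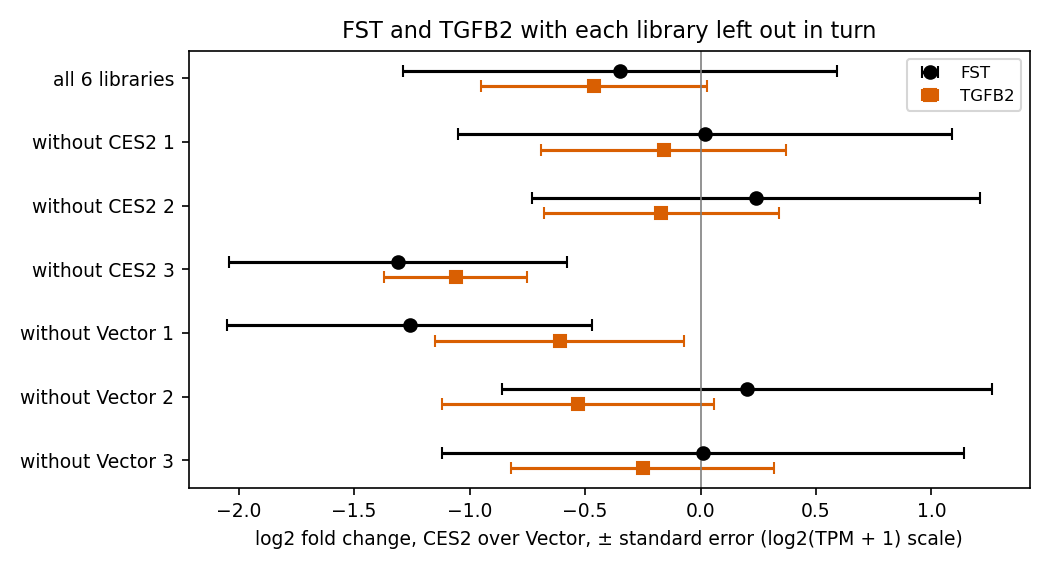
Log2 fold change of CES2 over Vector (horizontal, log2(TPM + 1) scale) for FST in black and TGFB2 in orange, with all 6 libraries and with each left out in turn; bars are standard errors from limma. FST moves between -1.31 and 0.24, while TGFB2 stays below 0.

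The genes whose pattern was most like that of FST were found by Pearson r of log2(TPM + 1) over the 6 libraries. The 6 points of FST fall into a low and a high set, share 1 scaling to a fixed total, and give no p here. A high r is common in this table: 855 genes (7.0%) had an r above 0.9 with FST and 655 (5.36%) had one below -0.9. The 5 highest were FAM69B (r = 0.997), KRI1 (0.995), MDH2 (0.994), DDX51 (0.994) and CYR61 (0.993). FAM69B was at 2.33, 1.78 and 6.70 TPM in CES2 and at 1.61, 5.70 and 5.46 TPM in Vector. CYR61, which encodes the matricellular protein CCN1, was at 33.1, 29.5 and 87.1 TPM in CES2 and at 24.9, 85.7 and 74.2 TPM in Vector. Both rank the libraries as FST does, but over a narrower range, with highest values 4.17 and 3.50 times the lowest against 11.2 times for FST. MDH2, the mitochondrial malate dehydrogenase, moved in the same order by only 1.19 times. The 5 lowest were CCDC110 (r = -0.997), CRYZL1 (-0.996), MORN4 (-0.996), ELL3 (-0.993) and SPTSSA (-0.993), a subunit of the enzyme that starts sphingolipid synthesis. SPTSSA was at 111, 121 and 53.6 TPM in CES2 and at 119.7, 63.8 and 71.4 TPM in Vector.

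**Figure D4:**
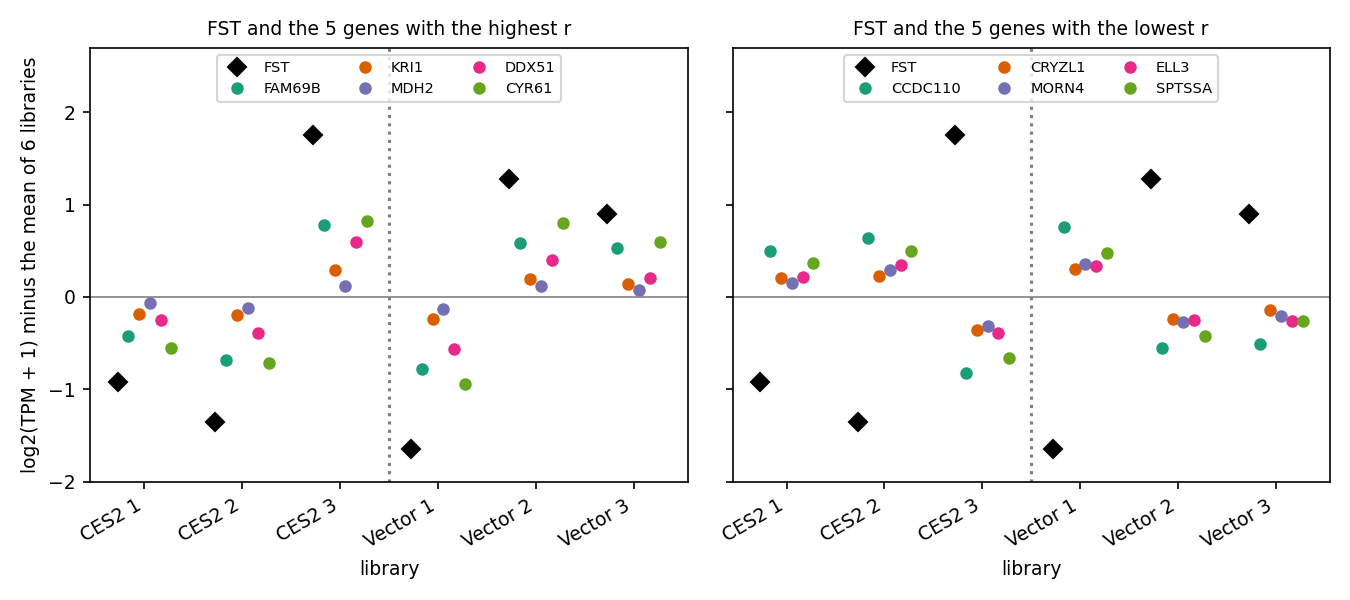
Log2(TPM + 1) minus the mean of the 6 libraries (vertical) in each library for FST (black diamonds) with the 5 genes of highest r (left) and the 5 of lowest r (right). The genes on the left follow FST up in CES2 3, Vector 2 and Vector 3, and those on the right go the other way, in each case over a smaller range than FST.

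The order of the libraries by FST was also their order on the first principal component of all tested genes, which held 52.8% of the variance and of which FST is itself a part. The scores were -0.08, -0.48 and 0.57 for CES2 1 to 3 and -0.52, 0.38 and 0.13 for Vector 1 to 3. Both groups had libraries at each end of that component. Among markers of other cell types, CDH5, an endothelial cadherin named after its values were seen, was higher in the libraries high in FST, at 13.7, 8.75 and 19.6 TPM in CES2 and 8.25, 25.3 and 20.9 TPM in Vector. The other endothelial markers with an entry stayed low and did not follow CDH5. PECAM1 was lower in the libraries high in FST, at 0.29, 0.549 and 0.206 TPM in CES2 and 0.419, 0.128 and 0.132 TPM in Vector. VWF did not split that way, at 0.764, 1.87 and 0.679 TPM in CES2 and 1.51, 0.382 and 1.6 TPM in Vector. The summed level of the 3 endothelial markers was 11.2 to 20.5 TPM in CES2 and 10.2 to 25.8 TPM in Vector. Their part in the spread of FST was not tested.

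Of the other members, TGFB2 had an r of 0.80 with FST and SMAD3 one of -0.97 over the 6 libraries, as a description. FSTL3 had 0.47, TGFB1 0.16, TGFBR1 0.34, TGFBR2 0.52 and SMAD7 -0.27. FSTL3 and SMAD7 had an r of -0.97 with each other, with Vector 1 the lowest library of FSTL3 and the highest of SMAD7. Over all tested genes other than FST, 7.0% had an r above 0.9 with FST and 5.36% had one below -0.9. Among the 77 tested pathway genes other than FST, 2 (2.60%) had an r above 0.9 and 9 (11.7%) had one below -0.9.

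Those with r above 0.9 were THBS1 and ID3. THBS1, which encodes thrombospondin 1, an activator of latent TGF-beta, was at 63.1, 58.6 and 490.4 TPM in CES2 and at 77.9, 231 and 338 TPM in Vector. ID3, a target of BMP signalling, was at 55.6, 32.6 and 79.9 TPM in CES2 and at 34.8, 84.6 and 91.4 TPM in Vector. CTGF, a target of TGF-beta and of YAP named after its values were seen, fell just short with an r of 0.892. It was at 1.73, 5.29 and 17.9 TPM in CES2 and at 1.82, 16.6 and 25.3 TPM in Vector, and its highest value was 14.6 times its lowest.

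The 9 genes below -0.9 were FN1, BHLHE40, SMAD3, ITGB6, ITGAV, ACTA2, MMP14, LTBP2 and CDKN1A, of which ITGB6, ITGAV and SMAD3 fall under the naming rule and the rest were chosen after their values were seen. FN1, fibronectin and a classical target of TGF-beta, was at 2.1, 2.73 and 0.612 TPM in CES2 and at 3.29, 0.979 and 1.03 TPM in Vector. ITGB6 and ITGAV encode the 2 chains of the integrin that releases active TGF-beta in epithelium. ITGB6 was at 71.0, 100.1 and 28.2 TPM in CES2 and at 94.5, 38.4 and 27.2 TPM in Vector. ITGAV was at 64.8, 59.4 and 33.9 TPM in CES2 and at 71.7, 39.9 and 51.2 TPM in Vector. Over whole lists, r with FST was below 0 for 19 of the 22 tested targets (86.4%), the exceptions being CTGF, PTHLH and SNAI1. It was below 0 for 4 of the 6 activators (66.7%), the exceptions being THBS1 and ITGB8. The same held for 3 of the 4 extracellular inhibitors and storage proteins other than FST and for 3 of the 5 SMADs. It held for 4 of the 7 receptors and co-receptors and 8 of the 16 intracellular regulators. In the BMP branch r was below 0 for 5 of 12 genes, and among the ligands for 2 of 5. Over all tested genes other than FST the share below 0 was 52.2%. Some of the r values of targets were near 0, as for TAGLN (-0.02) and TPM1 (-0.069). Without CES2 3 and Vector 1, the libraries farthest from the median of FST, r was 0.46 for TGFBI, 0.4 for TAGLN and -0.07 for SNAI1. These signs are a description of 6 libraries, and the genes of a list are not independent. The lists were also drawn up with earlier results of these data known.

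Beyond the 9 members, 89 genes of the pathway were listed by role, of which 80 had an entry and 70 were tested. None of the 70 passed the threshold in either direction by limma, and 0 reached an unadjusted p under 0.05, which 1.09% of all tested genes did. With 3 libraries in each group this does not show that these genes were unchanged. With the members included, 78 genes were tested, 28 above 0 and 50 below, with a median log2 fold change of -0.07 beside -0.06 over all genes tested. Groups did not overlap in 3 of the 78. TPM1, a tropomyosin, was at 76.2, 73.5 and 76.5 TPM in CES2 against 63.0, 57.2 and 71.0 TPM in Vector, a log2 fold change of 0.24. ZFYVE9, the SARA protein that brings SMAD2 and SMAD3 to the receptor, was at 18.1, 16.6 and 16.8 TPM in CES2 against 21.5, 18.4 and 26.0 TPM in Vector (-0.33). BMPR1B, a type I receptor of BMPs, was at 5.31, 4.79 and 5.27 TPM in CES2 against 7.01, 5.87 and 9.87 TPM in Vector (-0.46). That share is close to the 3.70% over all genes.

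By role, the 5 tested ligands had a median log2 fold change of -0.02, the 5 extracellular inhibitors and storage proteins -0.08, the 6 activators of latent TGF-beta -0.01 and the 7 receptors and co-receptors -0.09. Among these genes THBS1 was the lowest at -0.58 (SE 0.83) and ITGB6 the highest at 0.33 (SE 0.55). The storage protein LTBP1 was at -0.29, and LTBP4 was at -0.08. The receptor ACVR2B was at -0.17 and the co-receptor ENG at -0.16. The 5 SMADs had a median of -0.17, with SMAD6, a second inhibitory SMAD, at -0.30 and the shared partner SMAD4 at -0.18. SMAD4 was at 4.31, 3.92 and 4.43 TPM in CES2 and at 4.22, 6.36 and 4.38 TPM in Vector, so each library held its transcript at a low level.

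The 16 intracellular regulators had a median of -0.11, 4 above 0 and 12 below. BAMBI, a decoy receptor, was at 0.24, the deubiquitinase USP15 at -0.26 and the ubiquitin ligase SMURF1 at -0.17. The 22 tested targets had a median of -0.02 and the widest range, from -0.67 for CTGF to 0.91 for IGFBP3. IGFBP3 was at 18.5, 6.25 and 3.47 TPM in CES2 and at 1.93, 4.53 and 4.86 TPM in Vector, and CES2 1 alone lay far above the rest. TAGLN was at -0.59 and TGFBI, a secreted matrix protein, at -0.35. The 12 tested genes of the BMP branch had a median of -0.07, with SMAD5 at -0.40, ID3 at -0.29 and BMPR2 at -0.26.

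**Figure D5:**
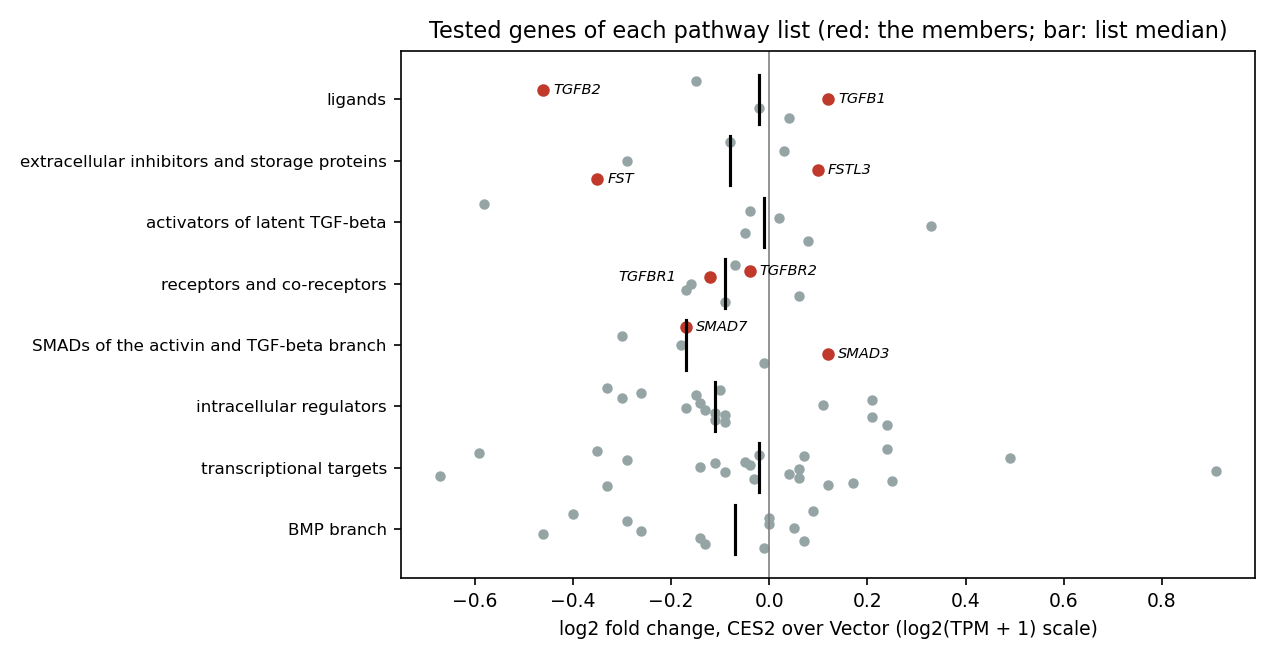
Log2 fold change of CES2 over Vector (horizontal, log2(TPM + 1) scale) for each tested gene of the 8 role lists; red points are the members, grey points the other genes, and black bars the list medians. The medians lie between -0.17 and -0.01, and both directions occur in each list.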

How the data were processed

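RNA from 6 Cal33 libraries was compared, 3 with the CES2 construct and 3 with the empty vector, grouped by the sample titles. For 14136 entries the authors deposited TPM, transcript abundance scaled by length to a fixed total, as column sums just under 1000000 show. Per the submitters' processing notes HISAT2 2.1.0, StringTie 1.3.3 and edgeR 3.0.8 were used with hg38 and GRCh38. For the role of each tool, the filters and the use of strand, the answer is not given in the sources used here. Sequencing depth cannot be read from TPM and is unknown, so counting error has no interval. The deposited listed transcript lengths and exon numbers are a file annotation of another kind than the values and were only described.

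Blank cells were read as 0, 12210 entries reaching 1 TPM in 3 or more libraries were kept, and log2(TPM + 1) was modelled on group alone with limma 3.58.1 (R 4.3.3, intensity trend). Benjamini-Hochberg adjustment covered all genes tested, at a threshold of 0.05. Fold changes are differences of log2(TPM + 1), so those of low genes are understated. The fit was tested on simulated data with independent noise for each gene. Such data lack the component that genes share in these libraries, so that check does not cover its effect. For CES2 itself an exact permutation test (two-sided) was added. Other steps used Python 3.11.15, pandas 2.3.3 and matplotlib 3.10.9. GENCODE release 29 gave the annotation and RefSeq (GRCh38.p14) the promoter windows.

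The members, the pathway lists and the rules were chosen with earlier results of these data known. Genes named are the 9 members, CES2, up to 4 genes of each pathway list with the smallest unadjusted p, and the 5 genes with the highest and the 5 with the lowest Pearson r with FST. Others are said to have been chosen after their values were seen. Alternatives were each library left out, the replicate number as a block, 2 other scalings, 2 other filters, a pseudocount of 0.1 and no intensity trend.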

Additional observations from a re-analysis of the deposited data

How the results depend on the processing

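The log2 fold change of CES2 lay between 5.54 and 5.78 with each library left out in turn and between 5.66 and 5.72 in the other fits, past the threshold each time. The number of genes past the threshold was 1 in each alternative except without CES2 3, so it ranged from 1 to 2 with each library left out. The number of pathway genes past it was 0 in each alternative, and their median log2 fold change lay between -0.154 and 0.01 with each library left out and was -0.013 under median rescaling. Same-numbered libraries had correlations of their deviations from the group means of 0.15, -0.52 and 0.37, and CES2 2 correlated best with Vector 1 (0.68). Within a group of 3 the deviations of a gene sum to 0, so these correlations constrain each other. They cannot show whether the replicate numbers pair the libraries. With the replicate block 1 gene passed, CES2 had a log2 fold change of 5.66 and FST one of -0.35 (standard error 0.69). FST, FSTL3, TGFB1, TGFBR1, TGFBR2 and SMAD3 changed sign in at least 1 alternative, as given with each gene; the cause was not tested. By Spearman rank correlation with FST, 205 genes tied at 1 and 247 at -1; of the genes named as least like FST, ELL3 was at -0.89 and SPTSSA at -0.94 and so would not be among the lowest. Depth is unknown, so no limit on INHBA, below 1 TPM throughout, can be given.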
